A study of Mus musculus x Mus spretus with 8 samples.

Results

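The RNA of the parental genomes, called genome 1 and genome 2, was compared gene by gene in the 2 wild-type libraries of a hybrid mouse cell line. An autosomal gene was taken when at least 50 reads of genome 1 and genome 2 together had been counted in each wild-type library, and when that sum did not exceed the gene's full count. Of the 49670 genes in the table, 45107 were autosomal and 11680 met this rule; 12 more reached 50 reads but had allele reads that summed above the full count. At the threshold itself, the 16 members with 50 reads in their lower library had genome 1 shares from 0 to 100% (median 65.0%) in replicate 1, and the 20 genes with 49 reads covered the same range (median 46.4%).

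The cells are Patski, a line from a female C57BL/6 X SPRET/EiJ hybrid, in which the second parent is the wild species Mus spretus; they were grown in serum medium and profiled by RNA-seq. Wild type (WT) has 2 libraries, and Stc1-KO, Pygo1-KO and Rlim-KO, which the labels give as -/- lines made from the same hybrid cells, have 2 each. The WT pair carries the comparison, and the other 6 libraries serve as further readings of the same alleles. The design text calls the knockouts independent mutants, while nothing says that the WT libraries came from separate cultures, so p-values here reflect just the scatter of these libraries, which may be technical. Neither genome is tied to a parent by the labels. As background, Patski cells keep the C57BL/6 X chromosome inactive, and Xist, the RNA made by the inactive X, had 99.4% and 99.6% of its allele reads from genome 1 in the WT libraries.

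In a first-generation hybrid, the alleles of a gene share a nucleus and all its transcription factors. A difference in RNA between the alleles is therefore read as a cis difference, one carried by the chromosome itself, such as a variant in a promoter or enhancer, a variant that changes RNA stability, or a parental imprint. In an established cell line the chromosome copies may also be unequal in number, which shifts every gene on a chromosome together. For that reason each gene's genome 1 share was compared with the median share of its own chromosome and not with an even split.

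The WT libraries held 76125575 and 81500061 counts, of which 50.6% and 51.1% were assigned to a genome. A share read from 50 reads at an even split has a 95% Wilson interval from 36.6 to 63.4%, and 1 read from 1155 reads has one from 47.1 to 52.8%; the median member had 1213 allele reads per library. These intervals cover counting error only. The labels call the cells fibroblasts, and 8 of 16 fibroblast markers reached 1 CPM (counts scaled by the library total) in both WT libraries. Fn1, the gene for fibronectin, stood at 2249 and 2294 CPM and Vim, for vimentin, at 949 and 930 CPM. Col1a2, Thy1, Prrx1 and Lum, however, were at 0 reads. Of 20 kidney tubule markers, 12 reached 1 CPM, among them the transcription factor gene Pax2 (739 and 716 CPM) and Cdh16, the kidney-specific cadherin (1797 and 1855 CPM). Of the same list Slc34a1 and Cldn3 were at 0 reads, Umod stood at 0.158 and 0.098 CPM, and Epcam at 0.657 and 1.12 CPM. Leukocyte markers reached it in 3 of 9 genes and endothelial markers in 1 of 8.

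The baseline differed widely between chromosomes. On 15 of the 19 autosomes the median genome 1 share lay between 20 and 80% in both WT libraries. It ran from 37.3% and 37.1% on chromosome 15 to 79.4% in both libraries on chromosome 3, with chromosome 18 (50.4% and 49.6%) nearest to an even split. The other 4 autosomes carried nearly 1 genome. Chromosome 9 stood at 98.7% and 98.6%, chromosome 4 at 0.983% and 1.17%, chromosome 11 at 1.65% and 1.77%, and chromosome 2 at 6.84% and 7.12%. The replicate medians of any autosome differed by less than 1 percentage point. Counts of genes are given for the 8307 members on the 15 autosomes with both genomes, while the fit and the adjustment of p-values took in all 11680. The other 3373 members lie on chromosomes 2, 4, 9 and 11.

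**Figure D1:**
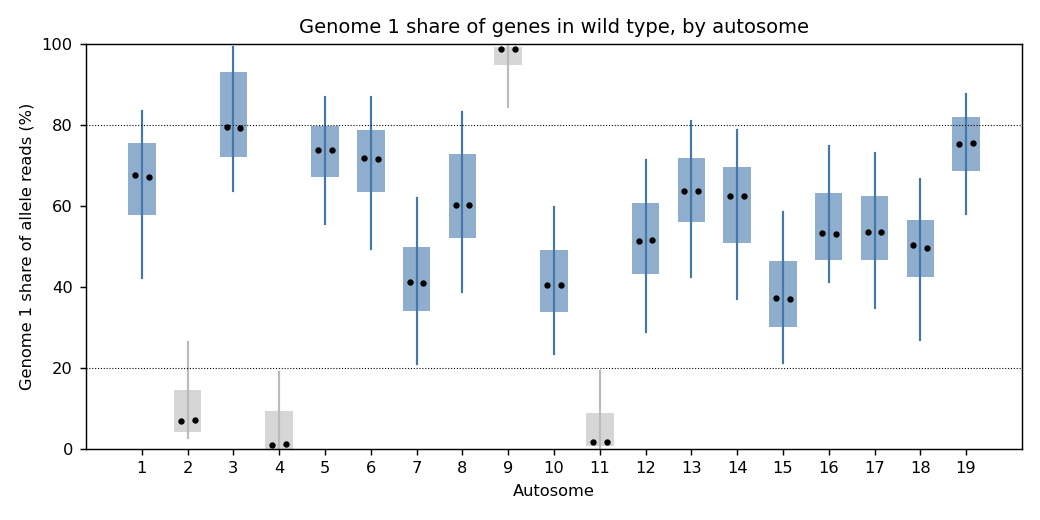
Genome 1 share of allele reads (percent, vertical axis) for the members of each autosome (horizontal axis). Boxes span the 25th to 75th percentile and lines the 10th to 90th percentile over genes of the mean of both WT libraries; the pair of dots is the median in WT replicate 1 and replicate 2. Blue autosomes lie between the dotted lines at 20 and 80%, and grey ones (2, 4, 9 and 11) outside them.

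Most genes sat off their chromosome's median, usually by little. A departure is the log2 odds of genome 1 against genome 2 relative to the chromosome median, positive toward genome 1. The median absolute departure was 0.53 (1.44-fold), at the 75th percentile it was 1.11 (2.16-fold), and at the 90th percentile it was 2.52 (5.73-fold). edgeR's quasi-likelihood test called 6400 of the 8307 members at a Benjamini-Hochberg adjusted p under 0.05, which is 77.0% of those tested, with 3211 (38.7%) toward genome 1 and 3189 (38.4%) toward genome 2. Departures of 2-fold or more were called in 2334 members (28.1%), of which 1264 (15.2%) leaned to genome 1 and 1070 (12.9%) to genome 2. In a fit that took its spread from all 8 libraries, edgeR called 4014 of the 8307, and 2131 without WT replicate 1 or 2160 without WT replicate 2, with 1490 and 1518 of these past 2-fold.

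The replicates differed far less than the genomes did. The median absolute difference between the WT libraries was 0.11 on the log2 scale, or 1.38 percentage points of share. In 6396 of the 6400 called genes both libraries lay on the fitted side, and in 2120 of the 2334 larger departures both were past 2-fold. The genes were called from these same libraries, so this agreement was largely set by the call. No gene had its WT libraries on opposite sides by 2-fold each. Standard errors (SE) below were derived from the departure and edgeR's test, whose spread is largely pooled over genes. They do not cover the error of the chromosome median, and they understate counting error where 1 genome has few reads.

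A chromosome median is not the only baseline, because the local share moved along some chromosomes. Against the median of the 20 nearest members, and on the same side as against the chromosome median, 4898 members (59.0%) stayed called and 1821 (21.9%) were past 2-fold in both readings, 956 (11.5%) toward genome 1 and 865 (10.4%) toward genome 2. The clearest shift lay at the end of chromosome 3. Between positions 110246109 and 159938664 (build mm10), 150 members had a local median of at least 90%, with median shares of 98.95% and 98.77%, while the other 456 members of the chromosome stood at 76.5% and 76.0%. In that segment 129 members were called 2-fold toward genome 1 against the chromosome median, and 35 of them were also called against the local one. The genes for the guanylate-binding proteins Gbp2 and Gbp3, for the DNA demethylase Tet2 and for the adhesion molecule Vcam1 lie there. Gbp2, at 99.3% of 1559 reads and 99.3% of 1468 reads, read 5.14 against the chromosome and -0.01 against its neighbours. Vcam1, at 125 of 138 and 117 of 130 reads, turned from 1.27 to -2.34, as more of its reads were assigned to genome 2 than in its neighbours. Whether those reads came from a genome 2 allele was not tested. On chromosome 9, which also has nearly 1 genome, 14.3% and 13.7% of protein-coding genes had 10% or more of the rarer genome.

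**Figure D2:**
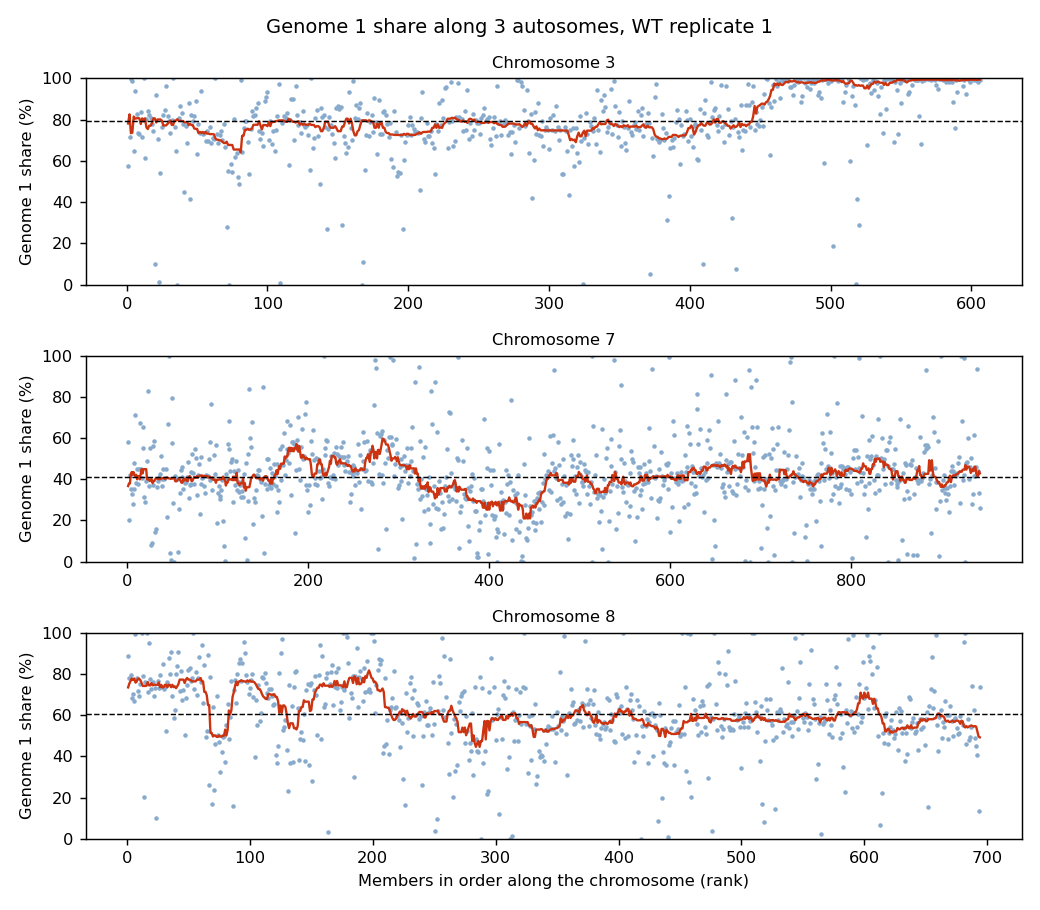
Genome 1 share in WT replicate 1 (percent) of each member of chromosomes 3, 7 and 8 (points), by rank along the chromosome. The red line is the median of the 20 nearest members and the dashed line the chromosome median; the line rises to nearly 100% at the end of chromosome 3, dips in the middle of chromosome 7 and changes in steps along the first part of chromosome 8.

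The genes farthest from their chromosome were read from a single genome in both WT libraries. They were ranked among genes called against both baselines, with at least 200 allele reads per WT library, no overlap with another annotated gene and a symbol of their own, and the 12 most extreme in each direction were taken. On the genome 1 side, Fuca2, which encodes a fucosidase (chromosome 10, 13499540 to 13519035, + strand), had 461 of 461 and 405 of 405 reads from genome 1, on a chromosome with a median of 40.3%. No read of genome 2 allows a genome 2 share of up to 0.651% and 0.741%, and odds at least 199-fold above the median. Cxcl14, a chemokine gene (chromosome 13, 56288643 to 56296551), had 380 of 380 and 386 of 386 reads from genome 1, at least 72.2-fold above the median of 63.7%. Both stayed above 99% genome 1 in the other libraries, although the library of Stc1-KO replicate 1 held only 3 allele reads of Cxcl14.

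Other protein-coding genes on this side held a few genome 2 reads. Orai2, a calcium channel subunit gene, had 1761 of 1761 and 1917 of 1918 reads from genome 1, and the gene for the tetraspanin Tspan14 had 5368 of 5377 and 6387 of 6389. The fitted departures were 10.17 for Orai2 and 9.31 for Tspan14, with edgeR adjusted p-values of 2.15e-35 and 5.61e-46. Their sizes rest on very few genome 2 reads and are imprecise. For Tspan14 the departure was 10.84 without WT replicate 1 and 8.48 without WT replicate 2. Scin, the gene for the actin-severing protein scinderin, had 899 of 901 and 920 of 921 genome 1 reads on chromosome 12, whose median was near even (51.2% and 51.7%). Neil3, a DNA glycosylase gene of base excision repair, had 451 of 451 and 375 of 376 on chromosome 8. Ranbp3l had 324 of 326 and 300 of 300 on chromosome 15, the autosome with the lowest of the 15 medians, and was the only one of the 12 to fall under 95% elsewhere, with 92.6% of 81 reads and 86.5% of 52 reads in the Pygo1-KO libraries. The remaining genes of this side are Gbp2b, with 444 of 444 and 357 of 357 reads in the chromosome 3 segment, the imprinted gene Zim1, and 3 near copies of other genes described below.

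Genes farthest toward genome 2 included the imprinted neighbours Sgce, for the membrane protein epsilon-sarcoglycan, and Peg10, a gene of retrotransposon origin. Sgce (chromosome 6, 4674350 to 4747207) had 0 of 522 and 0 of 425 reads from genome 1 where the chromosome median was 71.9%, so its odds lay at least 359-fold toward genome 2. Peg10 had 1 of 296 and 0 of 354. Bves, which encodes the muscle and epithelial membrane protein popeye 1 (chromosome 10, 45335772 to 45372479), had 0 of 655 and 0 of 641 reads from genome 1, at least 145-fold below the median. Rasd2, a small GTPase gene on chromosome 8, had 0 of 281 and 0 of 284. Ociad2 on chromosome 5 had 0 of 374 and 2 of 421, and Rasgrp3, a gene for an activator of Ras signalling on chromosome 17, had 1 of 466 and 0 of 384. R3hcc1 on chromosome 14 had 2 of 394 and 5 of 433. In the other libraries all genes of this paragraph with at least 50 reads stayed under 5% genome 1, except Rasd2 in Pygo1-KO replicate 2 (16.5% of 423 reads).

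**Figure D3:**
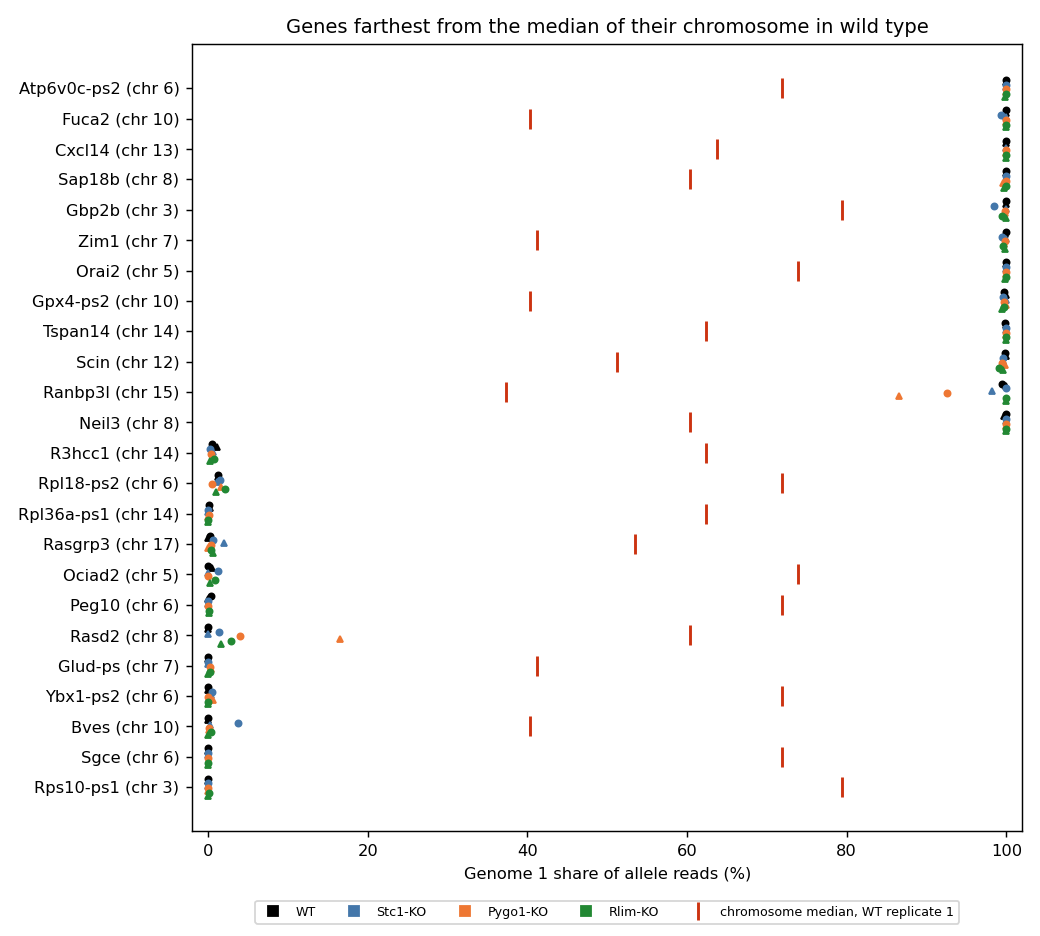
Genome 1 share (percent, horizontal axis) of the 12 genes farthest toward genome 1 and the 12 farthest toward genome 2, in all 8 libraries. Circles are replicate 1 and triangles replicate 2, colours are the groups, red bars are the chromosome median in WT replicate 1, and libraries with fewer than 10 allele reads of a gene are not drawn; all points but those of Ranbp3l and Rasd2 lie at an edge of the plot, and the bars lie between 37.3 and 79.4%.

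Beyond the ranked genes, several abundant transcripts came almost wholly from 1 genome; these were picked after their values had been seen. Fscn1, the gene for the actin-bundling protein fascin, had 31766 of 31800 and 35901 of 35922 reads from genome 1 on chromosome 5 (median 73.9%), while Rnf216, the next member on the chromosome, stood at 82.2% and 84.2%. Scd2, for a stearoyl-CoA desaturase that makes monounsaturated fatty acids, had 52646 of 52737 and 56606 of 56702 from genome 1 on chromosome 19 (75.4%). Stag3, a cohesin subunit gene known from meiosis, had 4613 of 4619 and 4698 of 4701. Oxtr, the oxytocin receptor gene, had 983 of 987 and 1133 of 1134 on chromosome 6, while the next member, Rad18, stood at 77.1% and 77.4%. Toward genome 2, Gpnmb, which encodes a lysosomal and cell-surface glycoprotein, had only 303 of 14449 and 269 of 15371 reads from genome 1, or 2.10% and 1.75%, on chromosome 6. Adamts14, a procollagen-processing protease gene, stood at 1.05% and 0.899% of 3223 and 3669 reads, and Lbh, a transcription cofactor gene, at 3.43% and 3.42% of 7968 and 9206 reads, on chromosomes with medians of 40.3% and 53.5%.

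In all, 360 members on the 15 autosomes had at least 95% genome 1 in both WT libraries, and 140 had at most 5%. The genome 1 set held 283 protein-coding genes and 39 pseudogenes, and for 110 of its members the local median was itself outside 20 to 80%. The genome 2 set held 74 protein-coding genes and 63 pseudogenes, with a local median outside that range for 3. On autosomes that kept both genomes in all 8 libraries, 78 of 111 such genes on the genome 1 side and 65 of 80 on the genome 2 side, each with enough reads throughout, kept to 1 genome in all of the other 6 libraries.

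Some of the other lines lacked genome 2 over most of a chromosome, which allowed a direct reading of how often genome 2 is assigned where there is almost none. The chromosome median was at least 99% genome 1 for chromosome 3 in both Pygo1-KO libraries, for chromosome 14 in Pygo1-KO replicate 1, for chromosomes 5, 6 and 19 in Pygo1-KO replicate 2, and for chromosome 6 in both Rlim-KO libraries. Where the local median was also at least 95%, 249 protein-coding genes had been called 2-fold toward genome 2 in WT. Of these, 214 had 50 or more reads in such a library, and 35 had fewer in every one. The shares that follow leave out the 35, so genes whose RNA fell along with genome 2 are under-represented. In 104 of the 214 (48.6%) at least 10% of the reads were still assigned to genome 2 in every library with enough reads. In 101 (47.2%) fewer were in every one. Among the other protein-coding members there, 109 of 2074 (5.26%) kept 10% or more. Of 36 pseudogenes called toward genome 2 in WT, 34 (94.4%) kept 10% or more. Among protein-coding genes called toward genome 2 in WT and with enough reads, about as many thus kept 10% or more genome 2 reads as did not. What part this has in the WT departures of genes on other chromosomes was not tested.

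Single genes fell clearly on either side of this reading. Gpnmb went from 2.10% and 1.75% genome 1 in WT to 93.1% of 9762 reads in Pygo1-KO replicate 2 and to 1897 of 2089 and 1748 of 1942 reads in the Rlim-KO libraries. Its level was 0.772 times the WT mean in Pygo1-KO replicate 2, with 9085 genome 1 reads, far more than in either WT library. In the Rlim-KO libraries the level was 0.161 and 0.148 times the WT mean. Why more genome 1 reads were counted than in WT was not tested. Cxcl12, the chemokine gene for the ligand of CXCR4, went from 22.7% and 24.2% to 98.7% of 79 reads in Pygo1-KO replicate 2, and its level was 0.0912 times the WT mean there. Gstm4, a glutathione transferase gene on chromosome 3 with 7.79% and 5.58% genome 1 in WT, was left with 4 and 5 allele reads in the Pygo1-KO libraries, and Gstk1, with 17.0% and 21.1%, with 17 reads in Pygo1-KO replicate 2. Sgce and Peg10 had no allele read at all in Pygo1-KO replicate 2, where their local medians were 92.6%, and kept 0 and 1 genome 1 read in Rlim-KO replicate 1, where the local medians of 72.4% and 76.2% still included genome 2. These genes had few reads, or reads of the other genome, where genome 2 was scarce; the lines also differ in genotype, which for a lower level cannot be told apart from the missing genome.

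Other genes kept their genome 2 reads without the genome. Rps10-ps1 on chromosome 3 had 1 of 1917 and 1 of 2334 genome 1 reads in WT, and 99.9% of its reads were still assigned to genome 2 in both Pygo1-KO libraries. Rpl18-ps2 and Ybx1-ps2 on chromosome 6 kept 98.4% and 99.4% in Pygo1-KO replicate 2. R3hcc1, although a protein-coding gene with no 50-base stretch shared with another gene, kept 280 of 281 reads on genome 2 in Pygo1-KO replicate 1, where its local median was 95.4% genome 1. For these genes the assignment to genome 2 did not follow the presence of the chromosome.

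Gene lists differed in how often their members departed, and each is read against all members, of which 28.1% departed by 2-fold (15.2% toward genome 1 and 12.9% toward genome 2) and 77.0% at any size (38.7% and 38.4%); the lists were picked with earlier results of these data known, and the counts are a description. Interferon-induced antiviral genes departed by 2-fold in 12 of 20 members, 8 toward genome 1 and 4 toward genome 2. Against both baselines the numbers were 5 and 3 (40.0%, with 21.9% over all members). Ifit2, which encodes an interferon-induced RNA-binding protein, had 109 of 110 and 116 of 118 reads from genome 1 on chromosome 19, a departure of 4.55. Its neighbour Ifit3b had 136 of 136 and 119 of 119, with 45.4% of its 50-base stretches also present in another gene, and DESeq2 did not call it. Stat2, the transcription factor gene of type I interferon signalling, stood at 65.6% and 69.9% against a median of 40.3% and read 1.64 ± 0.08 (SE). Gbp2, Gbp3 and Gbp7, which make up 3 of the 8, lie in the chromosome 3 segment described above.

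Antiviral genes toward genome 2 included Apobec3, for a cytidine deaminase that restricts retroviruses. Apobec3 (chromosome 15, 79891659 to 79915906) had 13 of 1688 and 15 of 1810 reads from genome 1, or 0.770% and 0.829% against 37.3%. Its departure was -6.19 (edgeR adjusted p = 2.08e-37), and its share stayed between 0.485% and 1.82% in the other 6 libraries. The tethering factor gene Bst2 stood at 38.1% and 36.9% against 60.3%. Oas1b, in which C57BL/6 is known for a truncating variant, had 21.6% of 329 and 28.7% of 356 reads from genome 1 against 73.9%, and in Pygo1-KO replicate 2, without genome 2 there, it stood at 98.3% of 121 reads. Mx2 had 13.4% of 149 and 17.4% of 138 against 53.2% and 53.1%. Oas1a, of the same family, went the other way, at 96.4% of 83 and 96.7% of 92 reads, with 57.1% of its 50-base stretches shared.

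Of 15 class I antigen presentation genes, 6 departed by 2-fold toward genome 2 (12.9% over all members) and 1 toward genome 1, and 9 and 2 were called at any size. The class I gene H2-D1 had 28.3% of 1020 and 31.0% of 1253 reads from genome 1 against 53.5%, and H2-M3 had 25.1% and 22.1%. Tap1 and Tap2, for the subunits of the peptide transporter, stood at 32.2% and 29.8% and at 27.0% and 26.3%, and Psmb8, for an immunoproteasome subunit encoded beside them, at 5.39% of 167 and 3.31% of 121 reads. All 3 overlap another annotated gene, so reads of the overlap may be shared. The departures of H2-D1 and Tap1 were -1.44 ± 0.08 and -1.36 ± 0.17. Tapbp, for the protein that links this transporter to class I molecules, departed the other way by 0.60, at 63.5% and 63.8%. H2-T22 departed toward genome 1 by 2.25, at 82.5% and 86.2%, and 57.6% of its 50-base stretches occur in another gene. The difference for H2-D1 held in the other 6 libraries, where the share lay between 16.5 and 37.9%.

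Glutathione transferases and other detoxification genes departed by 2-fold in 15 of 36 members, 6 toward genome 1 and 9 toward genome 2. Gstm4 stood at 7.79% of 539 and 5.58% of 538 reads against 79.4%, a departure of -5.74 ± 0.17. Aldh1a1, a retinaldehyde dehydrogenase gene, had 11.8% and 10.8% against 75.4%, and Cbr3, a carbonyl reductase gene, had 15.7% of 229 and 9.83% of 295 against 53.2%, which the fit over all 8 libraries did not call. Por, for the electron donor of microsomal cytochromes P450, leaned to genome 1 at 88.7% of 14631 and 88.3% of 16195 reads against 73.9%. Gstm3 leaned to genome 2 at 32.3% and 35.2%, but kept 57.4% and 60.9% genome 2 reads in the Pygo1-KO libraries that lack genome 2 there.

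Collagens and matrix genes departed by 2-fold in 5 of 15 members, all toward genome 1, while at any size 7 were called toward genome 1 and 6 toward genome 2. Against both baselines 4 were past 2-fold toward genome 1 and 0 toward genome 2. Fbln1, for the matrix protein fibulin 1, had 88.2% of 2048 and 87.3% of 2278 reads from genome 1 against 37.3%, and 91.5 to 95.8% in the other libraries. Col6a1 stood at 79.6% and 79.3% against 40.3%, and Fbln2 at 99.2% of 131 and 99.1% of 109 against 71.9%. Col5a2 had 93 of 93 and 84 of 85. Col4a2, a basement membrane collagen gene, had 75.8% and 76.0% against 60.3%, but its neighbours stood at 73.5%, and its departure of 1.05 was 0.20 against them. Among inflammatory genes 3 of 18 departed by 2-fold toward each genome, and 8 and 6 were called toward genome 1 and genome 2 at any size, with Cxcl12, Cxcl5 and Saa3 toward genome 2 and Cxcl1 (88.1% and 85.0% against 73.9%), Nfkbiz and Vcam1 toward genome 1. Cxcl5, at 57.6% and 55.7% against 73.9%, kept 26.2% genome 2 reads in Pygo1-KO replicate 2, where chromosome 5 has nearly no genome 2, and it was not called in the fit over all 8 libraries.

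Nuclear genes of oxidative phosphorylation departed by 2-fold in 10 of 53 members (18.9%), and at any size 32 were called toward genome 2 and 12 toward genome 1. Against both baselines 15.1% were past 2-fold, 3 toward genome 1 and 5 toward genome 2. Ndufb10, for a subunit of complex I, stood out with 42 of 1675 and 40 of 1827 reads from genome 1, or 2.51% and 2.19% against 53.5%. It stayed between 2.31% and 4.44% in the other 6 libraries. Cox6c, for a subunit of cytochrome c oxidase, had 13.8% and 13.6% against 37.3%. Ndufa11 and Ndufs4, also of complex I, leaned to genome 1, the first with 2964 of 3369 and 3481 of 3952 reads and the second at 87.4% and 85.2%. Nnt, the transhydrogenase gene in which some C57BL/6 strains carry a deletion, stood at 64.7% and 65.5% against 63.7%, and edgeR's test did not call it against the chromosome median (adjusted p = 0.163). Its neighbours stood at 79.96%, and against them it was called toward genome 2, at -1.15 (adjusted p = 4.44e-06). Most of its 50-base stretches (96.2%) occur in another annotated gene.

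Genes of cholesterol synthesis were called at any size toward genome 2 in 14 of 20 members (38.4% over all members) and toward genome 1 in 2, with 3 past 2-fold. Those 3 were Tm7sf2, for a sterol reductase (37.4% and 38.9% against 75.4%), Insig1, for the sensor that retains the SREBP complex (35.3% and 34.0% against 73.9%), and Mvk, for mevalonate kinase (48.1% and 45.5% against 73.9%). Insig1 and Mvk kept 53.1% and 27.9% genome 2 reads in Pygo1-KO replicate 2, in which chromosome 5 has nearly none, and none of the 3 was called in the fit over all 8 libraries. Replication and cell cycle genes departed by 2-fold in 7 of 44 members, and in 4 (9.09%) against both baselines. Among them the helicase subunit gene Mcm5 had 39.4% of 10885 and 38.6% of 12622 reads against 60.3%, and Cdkn1a, for the cell cycle inhibitor p21, had 75.3% and 74.4% against 53.5%. Ccna2, for cyclin A2, had 55.1% and 54.2% against 79.4%, but its neighbours stood at 67.7% and 70.4%, its departure of -1.67 was -0.89 against them, and it kept 35.4% and 35.6% genome 2 reads in the Pygo1-KO libraries.

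Chromatin regulators departed by 2-fold in 5 of 55 members (9.09%), the lowest share among lists with at least 10 members, and in 3 against both baselines. Smarca2, for an ATPase of the SWI/SNF complex, had 46.5% of 8308 and 47.8% of 8140 reads from genome 1 against 75.4%, and 11.7% genome 2 reads in Pygo1-KO replicate 2; the fit over all 8 libraries did not call it. The histone deacetylase gene Hdac3 had 66.2% and 69.3% against 50.4% and 49.6%, and read 1.07 ± 0.06. Zinc-finger genes departed in 46 of 260 members, 26 toward genome 1 and 20 toward genome 2, and solute carriers in 38 of 127, 17 and 21. Slc6a18, a kidney transporter gene, had 7.70% of 5478 and 8.52% of 5832 reads from genome 1 against 63.7%. Imprinted genes, whose parent of origin sets the active allele, departed in 14 of 23 members, 10 of them toward genome 2, such as Peg3 at 4.06% and 3.83%, and 4 toward genome 1, such as Igf2r at 98.8% and 99.1%.

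**Figure D4:**
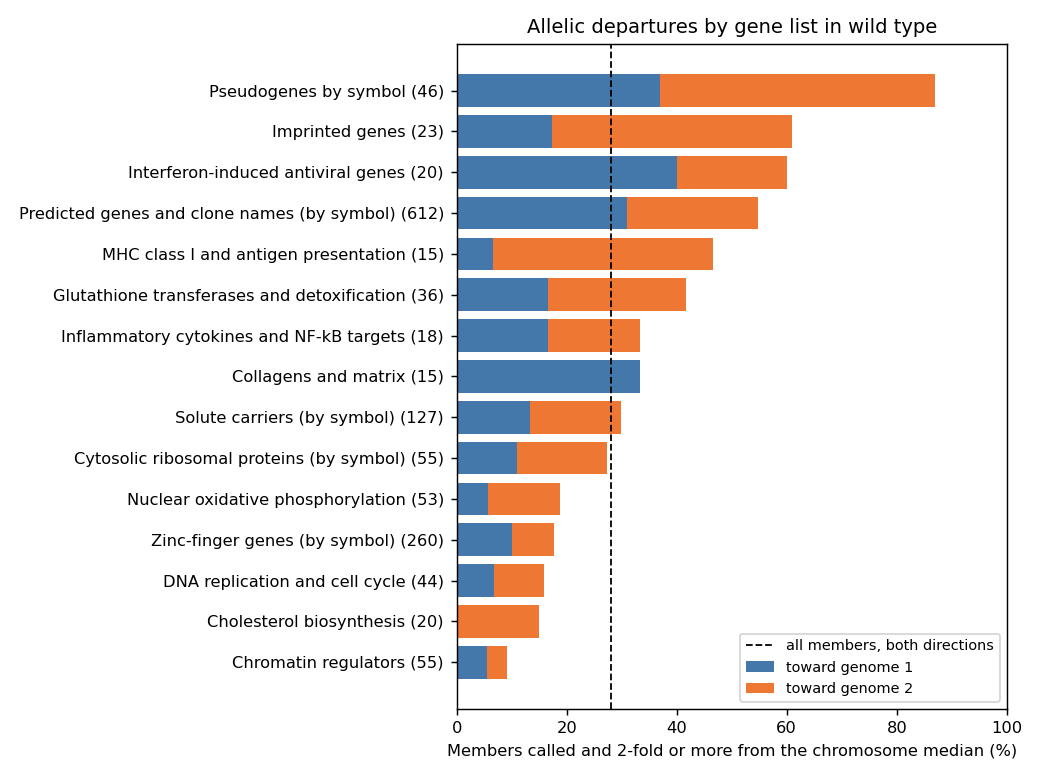
Percentage of members on the 15 autosomes that were called and departed by 2-fold or more (horizontal axis), by gene list, for lists with at least 10 such members, whose number is in brackets. Blue is toward genome 1, orange toward genome 2, and the dashed line marks 28.1% over all members; among the lists drawn, pseudogenes and imprinted genes are highest and chromatin regulators lowest.

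Departures sometimes ran over neighbouring genes. Of the runs of adjacent members called 2-fold on the same side, 1302 were a single gene and 260 were pairs, and the 5 longest, with 12 to 23 genes, lay in the chromosome 3 segment. On chromosome 8, 9 genes from Sfrp1 to Letm2 (23411502 to 25597582), with the Wnt antagonist gene Sfrp1 at 80.1% and 80.9% and the receptor gene Fgfr1 at 79.5% and 79.6%, lay where the local median was 74.5 to 76.9% against 60.3% for the chromosome, and 3 of the 9 were called against both baselines. On chromosome 7, the 7 genes from Bcat2 to Car11 (45570153 to 45704682) had 2.09 to 24.6% genome 1 against 41.3%, with local medians of 28.6 to 30.0%. Within that run the fucosyltransferase genes Fut1, Fut2 and Sec1 had 24.4%, 2.46% and 2.09% in replicate 1; Fut1 was not called against its neighbours or in the fit over all 8 libraries.

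On chromosome 19, the 5 members from Bloc1s2 to Sec31b, among them Scd1, Scd2 and Scd4, leaned to genome 1 against both baselines, with shares from 85.2 to 99.8% where the local median was 73.3 to 75.9%; Scd1 had 232 of 238 and 217 of 220 reads from genome 1. On chromosome 5, Orai2, Prkrip1 and Sh2b2 are successive members, picked after their values were seen, and each had at least 99.4% genome 1 in both libraries. Alkbh4 on one side of them had 76.5% and 73.4%, and Cux1 on the other side 82.0% and 82.3%. On chromosome 19, 8 members from Emx2os to Fam45a leaned to genome 2, with the homeobox gene Emx2 at 9.65% of 663 and 9.72% of 669 reads against 75.4% and local medians of 59.0 to 60.5%; 3 of the 8 were called against both baselines.

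The class of a gene and the number of its reads went with how often it departed. Protein-coding genes were 2-fold off in 25.7% of 7766, and processed pseudogenes in 87.6% of 177, with 58 toward genome 1 and 97 toward genome 2. Noncoding lincRNA genes leaned more to genome 1, with 39 of 99 toward it and 10 toward genome 2. With members split by expression into 4 groups of equal size, the share of protein-coding genes 2-fold off from the lowest to the highest group was 44.8, 25.5, 19.5 and 16.8%. The share called at any size rose instead, at 67.4, 73.1, 79.6 and 84.9%. What part the larger counting error of weakly expressed genes has in these trends was not tested. Genes with over 50% of their 50-base stretches in another gene departed in 51.1%, and those with none in 27.1%. Direction changed with the share of a gene's reads that was assigned to a genome. From the lowest to the highest of 4 such groups, 252, 218, 319 and 475 members were 2-fold toward genome 1. Toward genome 2 the numbers were 287, 314, 239 and 230, and the reason was not tested. For the 2216 protein-coding genes that overlap no other gene and share no such stretch, a set chosen after the data were seen, it was 26.3%, with 295 toward genome 1 and 287 toward genome 2.

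Near copies are prominent among the extreme values. Atp6v0c-ps2, a processed pseudogene on chromosome 6, had 2172 of 2172 and 2419 of 2419 reads from genome 1 and shares 90.5% of its 50-base stretches with another gene. Sap18b, whose shared part is 98.7%, had 309 of 309 and 352 of 352, and Gpx4-ps2 had 1402 of 1406 and 1751 of 1753. On the other side, Glud-ps had 0 of 560 and 0 of 514, and the ribosomal protein gene Rps13 had 0.500% of 5603 and 0.534% of 6923 reads against 41.3%, with 16.4% shared. Reads of a parent gene and of its copy could have been split by the authors' counting, so the shares of these genes are uncertain.

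Where a chromosome has nearly 1 genome, the reads of the rarer genome show the same limit in WT itself. On chromosome 4, 23.5% and 23.9% of 758 members had at least 10% of their reads assigned to genome 1, and on chromosome 11 it was 22.5% and 21.6% of 1009. On chromosome 9, where genome 2 is the rare one, it was 15.4% and 14.8% of 675. Chromosome 2 kept more of its rarer genome, with medians of 6.84% and 7.12%, and 37.1% and 38.2% of its 931 members reached 10%. Part of its genome 1 reads may therefore come from the chromosome itself. Processed pseudogenes of chromosome 4 had a median of 51.4% and 54.1% from the rare genome, against 0.892% and 0.973% for protein-coding genes. Protein-coding genes alone still reached 10% in 21.75% and 22.46% on chromosome 4. The values were 21.78% and 21.05% on chromosome 11, and 14.31% and 13.67% on chromosome 9.

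The other 6 libraries, whose lines carry the same alleles, repeated the larger WT departures. Over the 5457 members on the 10 autosomes with both genomes in all 8 libraries, edgeR called 3615 (66.2%) in the other libraries, and 1426 (26.1%) past 2-fold. On the same genes WT had 4183 (76.7%) and 1462 (26.8%). Of the 1462 genes past 2-fold in WT, 1394 (95.3%) were called on the same side in the other libraries and 0 on the opposite side. With 50 or more reads in all 6 libraries, 1210 of 1256 such genes (96.3%) lay on the WT side in every library. Of all 4183 genes called in WT, 3356 were called on the same side and 7 on the opposite side. Across 5149 genes, Pearson's r between the departures was 0.963 and Spearman's rho 0.956; genes are not independent replicates, and both axes share the gene's variants and its read assignment, so this is a description with no test.

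**Figure D5:**
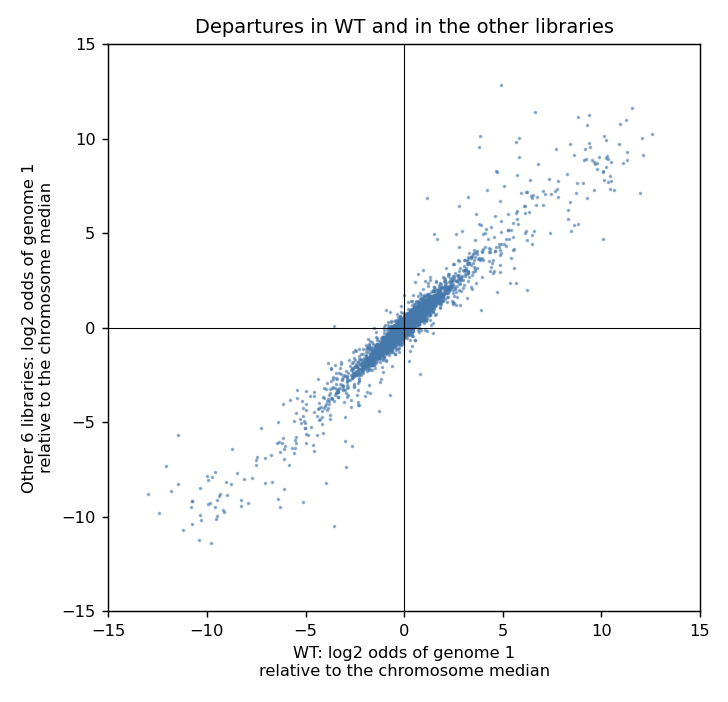
Departure from the chromosome median (log2 odds of genome 1) in WT (horizontal axis) and in the other 6 libraries (vertical axis) for 5457 members on the 10 autosomes with both genomes in all 8 libraries. Each point is a gene; points follow the diagonal, and none of the 1462 genes called 2-fold in WT was called on the opposite side.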

How the data were processed

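RNA was extracted with Trizol and made into TruSeq RNA libraries from 1 microgram, per the labels' protocols. The authors deposited raw counts per gene, 3 for each library: every read of the gene, those of genome 1, and those of genome 2. The submitters' processing notes name the build mm10, featureCounts, Cufflinks and HISAT2 2.0.5, with no role for each. How reads were split by genome, the strand setting and the handling of reads with several positions are not given in the sources used here. An alignment to mm10 can favour C57BL/6 reads, and genes that overlap are uncertain without the strand.

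Symbols, positions and classes come from GENCODE M21 on GRCm38, which matched 49411 of 49670 genes. For the fit of both genomes, edgeR 4.0.16 under R 4.3.3 was used with a term for the library and one for the genome, and with the log odds of the chromosome's median share in that library as offset. The 4 columns of the WT libraries entered the WT fit. The biological coefficient of variation was 3.19% in WT and 42.4% over the other 6 libraries. The library term is a replicate block by construction, since both genomes are read in the same library. Shares have 95% Wilson intervals. A count of 0 was bounded with a floor of 3 reads per library, and the lower of the bounds from the WT libraries is given. Near copies were measured as the share of 50-base stretches of the longest transcript, taken every 10 bases, that occur in a transcript of another gene. CPM scales a gene's full count by the library total.

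Genes were named by these rules: the 12 farthest in each direction, up to 3 called members of each of 20 lists with the smallest adjusted p, and Nnt; others were added after their values were seen. The members and lists were chosen with earlier results of these data known. Alternatives were another baseline, read minimum, tool (DESeq2 1.42.0), set of libraries in the fit, no replicate block, and each library left out. The test was checked on simulated counts in which few genes departed and no read was assigned to the wrong genome. That check therefore does not cover read assignment or data in which most genes depart. Genes whose allele reads summed above their full count were left out.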

Additional observations from a re-analysis of the deposited data

How the results depend on the processing

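With 2 libraries the error rests on their closeness, and shares of genes with near copies or overlaps are limited by read assignment. The count of WT members off their chromosome median (6400) and of those past 2-fold (2334) stayed within 1.5 times under the local baseline (5662 and 2166), the share of the summed chromosome, read minimums of 20 and 200, DESeq2 (5527 and 2271), the fit of the 15 autosomes alone, and no replicate block (5785 and 2338, with the pairing of genomes in a library dropped). Calls against both baselines, added after the data were seen, numbered 4898 and 1821. With all 8 libraries in the fit, which then shares the wider spread of the other lines, 4014 members were called. In that fit, where the lone WT library is assumed to vary like the other groups, leaving out a WT library gave 2131 to 2160 calls and 1490 to 1518 past 2-fold. Leaving out overlapping genes left 3472 to test and gave 2693 and 1021 calls, and the 2216 protein-coding genes without overlap or shared stretches, also added afterwards, gave 1722 and 582. For the other 6 libraries the count of 3615 ran from 2913 with no replicate block to 4004 with DESeq2, and from 3239 to 3492 with a library left out. With the local baseline, 4 called genes turned direction, all in the chromosome 3 segment: Vcam1 (-2.34), Tet2 (-0.18), Gbp3 (-0.91) and Gbp2 (-0.01); Nnt on chromosome 13, not called at 0.09, was called at -1.15, and Gbp7 and Fut1 lost their call. Of 145 named genes, 32 or 35 lost their call without WT replicate 1 or 2, 2 with DESeq2 (Ifit3b and Gbp7), and 12 with all 8 libraries in the fit (Setdb2, Cbr3, C3, Tm7sf2, Smarca2, Pax2, Insig1, Cxcl5, Mvk, Vwf, Ccnd2 and Fut1).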
